A study of Mus musculus with 4 samples.

Results

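Collagen genes outside the cartilage-specific set were examined in ATDC5 cells, a mouse chondrogenic line that deposits a matrix like that of cartilage once it is made to differentiate. Members were all genes whose symbol is Col, a number, the letter a and a number, read by probe sets that carry exactly that symbol, after leaving out the 8 cartilage collagen genes Col2a1, Col9a1, Col9a2, Col9a3, Col10a1, Col11a1, Col11a2 and Col27a1. This gave 34 of the 17097 genes tested and 56 of the 45141 probe sets in the table. There were 2 control arrays and 2 knockdown arrays, from cells transfected with 30 nM of a scrambled RNA duplex or of a duplex against Chadl, the gene of a leucine-rich repeat protein. The medium was changed to differentiation medium after 16 h, and RNA was taken at day 5 of differentiation from both groups. Both groups came from the same line, and the labels report 1 effective duplex sequence, so effects of Chadl and effects of this duplex on other transcripts cannot be told apart. The duplex is shown because it defines the knockdown group, and the labels do not say which strand it gives.

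Chadl duplex: acaagguagagaaacaaagagacca

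Collagens are secreted proteins whose chains wind into a triple helix built on repeats in which glycine recurs at a fixed interval. Fibrillar collagens (types I, III, V and XXIV here) assemble into the fibrils that give connective tissue its tensile strength, network collagens (types IV and VIII) form sheets in and near basement membranes, and type VI chains form beaded microfilaments around cells. FACIT collagens (fibril-associated collagens with interrupted triple helices) sit on fibril surfaces, and transmembrane collagens span the cell membrane. In cartilage, type II, IX and XI collagens dominate the matrix, type VI collagen surrounds each chondrocyte, and type I collagen marks bone and fibrous tissue.

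Values are log2 signals per probe set after RMA, in which 1 unit is a doubling, and signals of different probe sets are not compared as amounts. Array medians ran from 4.24 to 4.25. The label of the line was checked against its markers: Sox9, the master factor of chondrogenesis, lay at the 79.8th percentile of gene signals and Col2a1, which encodes the main cartilage collagen, at the 92.1th, but only 5 of 14 chondrocyte markers reached the median gene signal (4.86). Of the 6 osteoblast markers measured 5 did, among them the bone sialoprotein gene Ibsp at the 93.5th percentile and the osteoblast factor gene Sp7 at the 86.9th. The smooth muscle actin gene Acta2 lay at the 98.0th percentile, but only 1 of the 4 smooth muscle markers measured reached the median. None of 6 endothelial markers reached the median, and 2 of them lay under the 10th percentile. Chadl itself read 4.91 and 4.84 in control arrays and 4.29 and 4.64 in knockdown arrays. Its difference was -0.41, 1.32-fold lower (SE 0.12, unadjusted p = 0.0158, adjusted p = 0.728, limma). Knockdown 1 differed from the control mean by -0.58 and knockdown 2 by -0.23. Chadl was read by 1 probe set below the median signal (47.1th percentile). The titles speak of biological replicates and name no separate cultures, so p-values measure only the spread between these arrays, which may be technical. Since whole cultures were measured, fewer cells of a type and less RNA per cell cannot be told apart.

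No collagen gene passed the test. Of the 34 members, 0 reached an adjusted p of 0.05 in limma against 0% of all genes, and the lowest adjusted p was 0.615, for Col4a5. With an unadjusted p under 0.05 in limma there were 5 on the lower side and 0 on the higher, against 2.52% of all genes lower and 4.15% higher. The 5 were Col1a1, Col4a5, Col8a1, Col6a1 and Col6a3. All 5 were bright, from the 94.1th (Col8a1) to the 98.45th percentile (Col6a3), while the shares are over genes of every signal level. Both knockdown arrays lay below both controls for 9 members, where 17.1% of all genes did, and above both for 7, where 21.2% did. The arrays of the other 18 members overlapped. The median difference over members, knockdown minus control, was -0.04, against 0.0067 over all genes. It was -0.03 in knockdown 1 and -0.02 in knockdown 2. Differences ran from -0.36 (Col6a3) to 0.28 (Col7a1), and 0 of 34 exceeded 1.5-fold, where 0.491% of all genes did. The 95% confidence interval lay within 1.5-fold in both directions for 33 members, the exception being Col6a3.

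**Figure D1:**
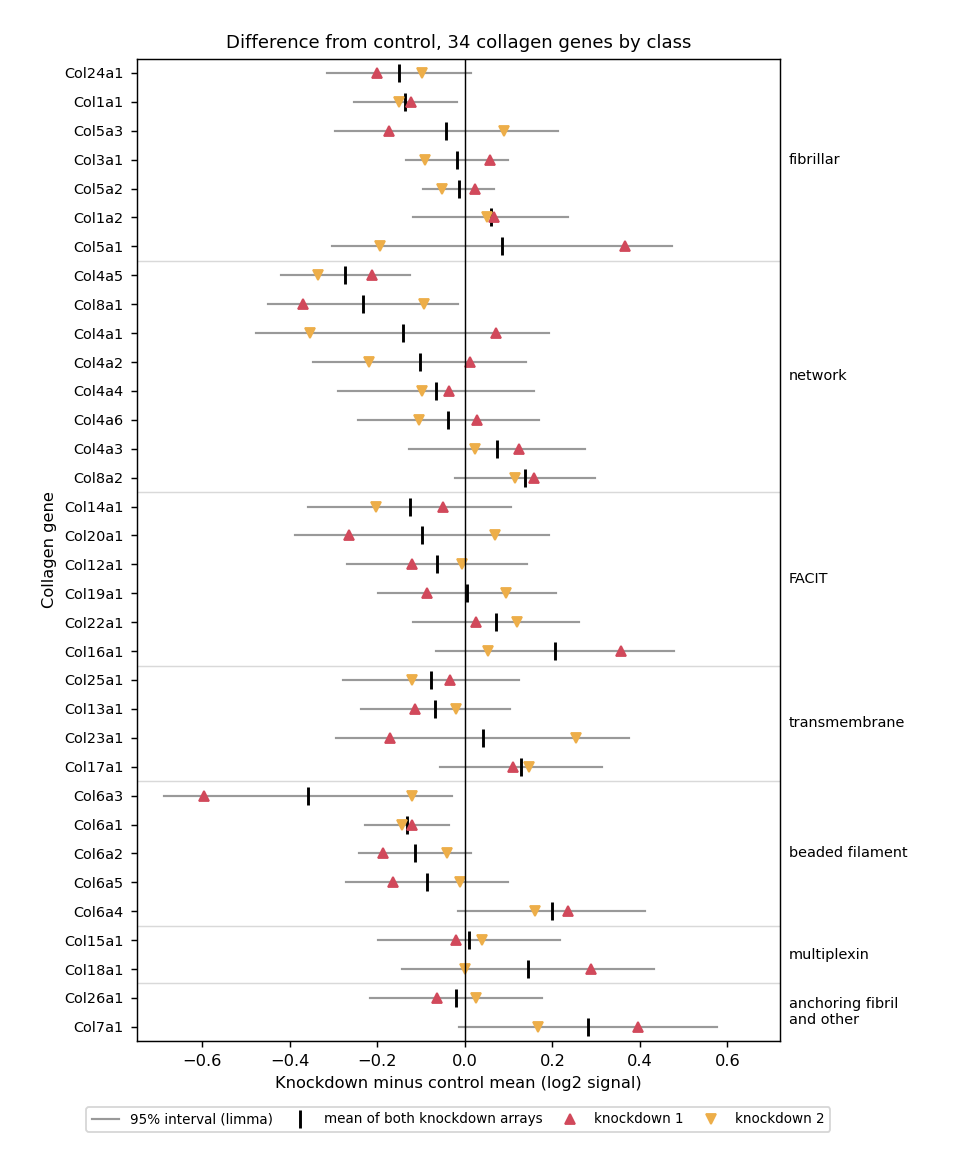
Knockdown minus control mean (log2 signal, horizontal axis) for the 34 collagen genes, grouped by class. Triangles are the 2 knockdown arrays, black ticks their mean and grey lines the 95% interval from limma; only Col1a1, Col4a5, Col8a1, Col6a1 and Col6a3 have intervals that leave out 0, all on the lower side.

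The knockdown arrays differed from each other more than the controls did. Over the members, the SD of the difference between the controls was 0.10 and between the knockdown arrays 0.23, against 0.10 and 0.20 over all genes. Which members passed turned in part on which array was kept, and Col5a1 changed its sign (-0.19 without knockdown 1, 0.37 without knockdown 2). Without knockdown 1, 7 members passed in limma, all 7 lower, where 1.37% of all genes passed on the lower side and 1.91% on the higher. They were Col1a1, Col3a1, Col4a1, Col4a5, Col5a1, Col6a1 and Col6a3. Without knockdown 2, 9 members passed, 6 lower and 3 higher, where 6.18% of all genes passed on the lower side and 8.94% on the higher. The lower ones were Col1a1, Col4a5, Col6a1, Col6a2, Col6a3 and Col8a1, and the higher ones Col5a1, Col7a1 and Col16a1. Both fits use the same controls, and each takes its lone knockdown array to vary as they do. Without control 1 the median difference over members was -0.0083, and without control 2 it was -0.046.

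Type VI collagen genes made up 2 of the 5 members on the lower side with an unadjusted p under 0.05. The type VI heterotrimer is made of the chains of Col6a1, Col6a2 and Col6a3, and the groups of all 3 were fully separated, with knockdown lower. Col6a1 read 9.92 and 9.94 in control arrays against 9.81 and 9.79 in knockdown. The knockdown arrays lay 0.02 apart, as did the controls, and the groups did not overlap. Its difference was -0.13 (SE 0.04, 95% interval -0.23 to -0.04), a 1.1-fold lower signal (unadjusted p = 0.0147, adjusted p = 0.728, limma).

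Col6a3, the chain with the long run of von Willebrand factor A domains, had the largest mean difference of any member. It read 10.67 and 10.65 in control arrays against 10.06 and 10.54 in knockdown. Knockdown 1 differed from the control mean by -0.60 and knockdown 2 by -0.12, so most of the difference lay in 1 array. The mean difference was -0.36 (SE 0.14, 95% interval -0.69 to -0.03), 1.28-fold lower (unadjusted p = 0.0374, adjusted p = 0.743, limma). With knockdown 2 left out the difference was -0.60, and with knockdown 1 left out it was -0.12.

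Col6a2 read 10.54 and 10.50 against 10.33 and 10.48, a difference of -0.11 (SE 0.05, unadjusted p = 0.0734, limma). Knockdown 2 differed from the control mean by only -0.04, close to the gap of 0.03 between the controls. A second Col6a2 probe set read 8.81 and 8.79 against 8.60 and 8.74, with a difference of -0.13. Both probe sets thus placed the arrays in the same order of groups. The relatives Col6a4 and Col6a5, whose chains can take the place of the Col6a3 chain, were dim, at the 32.5th and 2.45th percentiles of gene signals. Col6a4 differed by 0.20, on the other side from the 3 main chains (SE 0.09, unadjusted p = 0.0632, limma), and by 0.12 to 0.28 when 1 array was left out. A second Col6a4 probe set, also dim, read 3.79 and 3.79 against 3.88 and 3.80, a smaller difference of 0.05. Col6a5 differed by -0.09, and its arrays overlapped. Over the 5 type VI genes the median difference was -0.11, and it was -0.16 in knockdown 1 and -0.041 in knockdown 2. In both arrays 3 lay below both controls and 1 above, where 17.1% of all genes lay below and 21.2% above.

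The sequences before the starts of the 3 main type VI genes and of Col4a5, the member with the lowest p, are printed so that their make-up can be set beside these values. They are the 250 bases before each RefSeq start of GRCm38.p6, 5′ to 3′ on the strand of the gene, and hold no transcribed base of that start. For Col6a2, which has more than 1 listed start, the outermost was taken. Capitals mark GGGCGG on either strand, the GC box bound by Sp factors.

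Col6a1 promoter (chr10:76726045-76726294, minus strand): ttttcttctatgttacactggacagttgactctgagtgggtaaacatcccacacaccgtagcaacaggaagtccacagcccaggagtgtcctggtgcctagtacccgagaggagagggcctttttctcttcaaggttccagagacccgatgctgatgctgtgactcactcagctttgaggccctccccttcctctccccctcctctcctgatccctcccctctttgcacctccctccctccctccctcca
Col6a2 promoter (chr10:76623631-76623880, minus strand): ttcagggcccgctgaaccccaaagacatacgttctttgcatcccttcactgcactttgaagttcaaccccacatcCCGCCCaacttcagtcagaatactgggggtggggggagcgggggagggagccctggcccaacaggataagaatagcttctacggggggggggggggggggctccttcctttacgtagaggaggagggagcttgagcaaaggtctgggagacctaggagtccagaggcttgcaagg
Col6a3 promoter (chr1:90843972-90844221, minus strand): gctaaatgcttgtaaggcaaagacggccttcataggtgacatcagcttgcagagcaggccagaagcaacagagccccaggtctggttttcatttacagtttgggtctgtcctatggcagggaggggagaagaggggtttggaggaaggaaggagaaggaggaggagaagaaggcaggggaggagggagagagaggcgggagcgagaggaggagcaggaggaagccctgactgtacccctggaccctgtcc
Col4a5 promoter (chrX:141475169-141475418, plus strand): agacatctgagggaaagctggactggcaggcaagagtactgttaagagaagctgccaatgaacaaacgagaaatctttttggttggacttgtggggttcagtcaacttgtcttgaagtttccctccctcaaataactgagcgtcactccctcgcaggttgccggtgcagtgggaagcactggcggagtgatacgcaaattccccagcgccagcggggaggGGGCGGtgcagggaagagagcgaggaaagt

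Among these 4 windows GGGCGG occurred 1 time in Col6a2 and 1 time in Col4a5, and in neither Col6a1 nor Col6a3. The window of the other listed Col6a2 start, not printed, held it 3 times, so the Col6a2 count depends on the start taken. Of all 32851 windows of this length, 32.7% held it on either strand, and 17 of the 29 member windows (27 of 34 genes had one) did. The AP-1 motif TGANTCA, which reads the same on both strands in its fixed letters, occurred 1 time in Col6a1 and in no other member window, where 6.75% of all windows held it. TATAAA on either strand was in 3 of the 29 member windows and 12.4% of all, and CCAAT in 11 of 29 and 33.8% of all. No searched motif contains another. The windows of the 3 main type VI genes held 0 matches to TATAAA and 0 to CCAAT, so no searched motif was shared by all 3.

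Fibrillar collagens had a median of -0.02, and it was 0.023 in knockdown 1 and -0.091 in knockdown 2. Of their 7 members 2 had fully separated groups with knockdown lower (17.1% of all genes) and 1 with knockdown higher (21.2%). Col1a1 encodes the main chain of type I collagen, the chief collagen of bone and skin. It read 9.77 and 9.86 in control arrays against 9.69 and 9.66 in knockdown. The groups did not overlap, although the controls lay 0.09 apart, not far under the difference of -0.14 (SE 0.05, unadjusted p = 0.0292, adjusted p = 0.728, limma). Both knockdown arrays took part alike, at -0.12 and -0.15 from the control mean.

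Its partner chain gene Col1a2 read 6.55 and 6.53 against 6.61 and 6.59, a difference of 0.06 with the knockdown arrays above the controls (SE 0.07, unadjusted p = 0.453, limma). The 2 chain genes of type I collagen thus lay on opposite sides of control, and that difference between them was not tested. Each was read by 1 probe set. Col24a1, a minor fibrillar chain, was dim at the 4.5th percentile and differed by -0.15.

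Col3a1, which encodes type III collagen of elastic and healing tissue, read 11.93 and 11.88 in control arrays against 11.96 and 11.81 in knockdown. Knockdown 1 was the highest array and knockdown 2 the lowest, with a mean difference of -0.02 (95% interval -0.13 to 0.10). A second probe set read 9.12 and 9.11 against 9.26 and 9.10, a difference of 0.07. Without knockdown 2 the sign of the first turned to 0.06, and with the mean of both probe sets it was 0.02. No direction can be read for Col3a1 from these arrays.

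Type V collagen, which nucleates and limits the width of type I fibrils, gave a different picture by probe set. The brightest Col5a1 probe set read 9.60 and 9.57 in the controls, 9.95 in knockdown 1 and 9.39 in knockdown 2, which placed the 2 knockdown arrays on opposite sides. Its mean difference was 0.09 (SE 0.16, adjusted p = 0.932, limma), and it was -0.19 without knockdown 1 and 0.37 without knockdown 2. Another Col5a1 probe set, also bright, read 9.01 and 9.02 against 8.72 and 8.77.

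That second probe set was lower in both knockdown arrays (difference -0.27, SE 0.05, 95% interval -0.40 to -0.14). Its adjusted p over all 45037 probe sets was 0.43 (limma). The dimmest Col5a1 probe set read 5.40 and 5.47 against 5.14 and 5.32, a difference of -0.21. The sign of Col5a1 therefore depends on the probe set taken, and with the mean of its 3 probe sets it was -0.13.

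Col5a2, the other common type V chain gene, showed a related pattern. Its brightest probe set read 11.72 and 11.68 against 11.72 and 11.65, a difference of -0.01 (95% interval -0.10 to 0.07), with overlapping groups. The second read 9.83 and 9.85 in control arrays against 9.64 and 9.64 in knockdown, 1.15-fold lower (difference -0.20, SE 0.04, adjusted p = 0.461 over all probe sets, limma). The knockdown arrays of this probe set were almost level with each other, and both lay below both controls. Col5a3, a chain of restricted distribution, was dim, and its probe sets differed by -0.04 and -0.13.

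**Figure D2:**
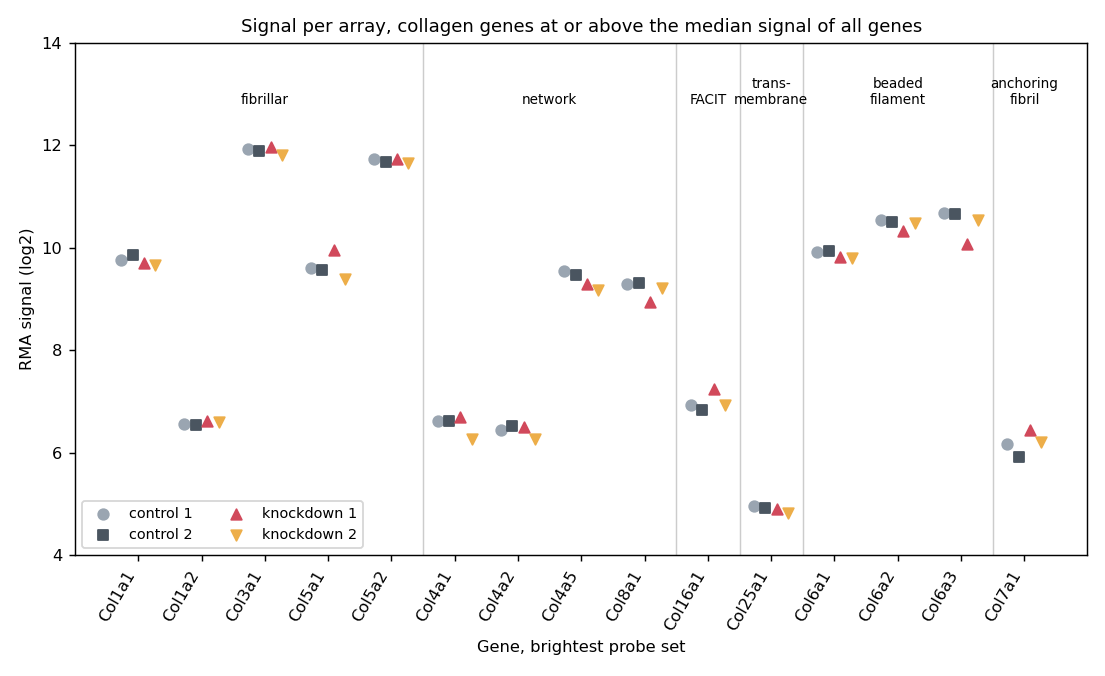
RMA signal (log2, vertical axis) in each of the 4 arrays for the 15 collagen genes whose mean reached the median gene signal (4.86), by class, with the brightest probe set of each gene. In Col6a3 and Col5a1 knockdown 1 stands away from the other arrays, in Col4a1 knockdown 2 does, and in Col6a1 and Col1a1 both knockdown arrays lie just under both controls.

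The unequal behaviour of probe sets was measured as the gap, within each array, between the brightest and the next probe set of a gene. This used the 7 genes for which both reached the median gene signal. For Col5a1 the gap was 0.59 and 0.54 in the controls, 1.23 in knockdown 1 and 0.62 in knockdown 2. It was thus wider mainly in knockdown 1. For Col5a2 it was 1.90 and 1.83 in control arrays against 2.08 and 2.01 in knockdown, and for Col4a5 2.09 and 2.05 against 1.91 and 1.89.

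The gap for Col6a2 stayed between 1.71 and 1.74 in all 4 arrays. Those of Col3a1 (2.81 and 2.77 against 2.70 and 2.72) and Col8a1 (1.73 and 1.64 against 1.81 and 1.82) moved by 0.13 at most in the mean. For Col4a1 the arrays overlapped. The differences in these gaps were not tested. A shift of the gap shows that the probe sets of a gene read unequally, and not which of them follows the transcript.

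**Figure D3:**
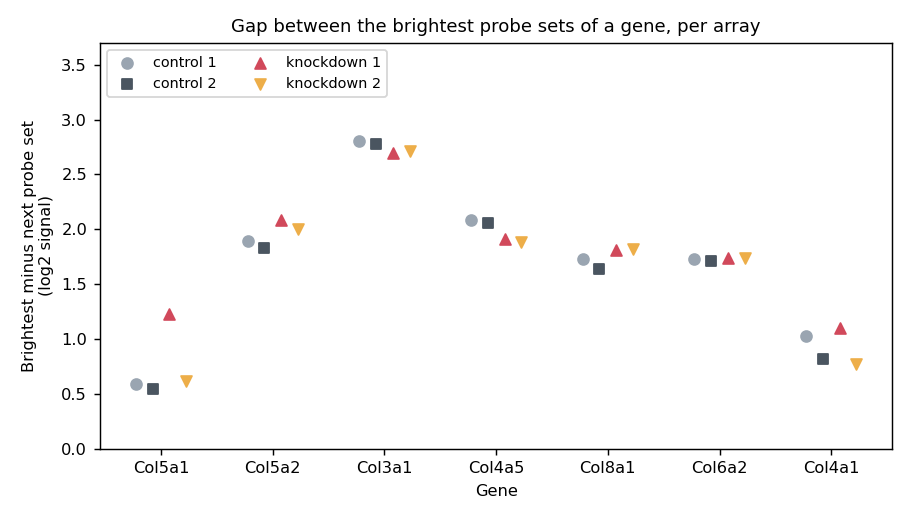
Gap in log2 signal between the brightest and the next probe set of a gene (vertical axis), in each of the 4 arrays, for 7 collagen genes. Col5a1 stands out in knockdown 1, at 1.23 against 0.54 to 0.62 in the other arrays, while Col6a2 is level.

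Network collagens had a median of -0.085, and it was 0.021 in knockdown 1 and -0.10 in knockdown 2. Fully separated groups were found for 2 of their 8 members with knockdown lower and for 1 with knockdown higher, against the same 17.1% and 21.2% of all genes. Col4a5, a type IV chain of specialised basement membranes, read 9.54 and 9.46 in control arrays against 9.29 and 9.17 in knockdown. All knockdown signals were below all control signals, by more than the gap of 0.09 between the controls. The difference was -0.27 (SE 0.06, 95% interval -0.42 to -0.13), 1.21-fold lower (unadjusted p = 0.00354, adjusted p = 0.615, limma). Its second probe set read 7.46 and 7.40 against 7.38 and 7.28, a smaller difference of -0.10 on the same side.

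Col8a1 encodes a short-chain network collagen found around blood vessels and under the corneal endothelium. It read 9.30 and 9.30 in control arrays against 8.93 and 9.21 in knockdown, a difference of -0.23 (SE 0.09, unadjusted p = 0.0399, adjusted p = 0.743, limma). Most of it lay in knockdown 1, at -0.37, with knockdown 2 at -0.09. Its other 2 probe sets differed by -0.37 and -0.21, so all 3 lay on the lower side. Without knockdown 1 the difference was -0.09. Col8a2, which encodes the other type VIII chain, was dim and differed by 0.14.

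Col4a1 and Col4a2, which are transcribed in opposite directions from a shared promoter region, encode the chains of the type IV network present in nearly all basement membranes. Col4a1 read 6.63 and 6.61 in the controls, 6.69 in knockdown 1 and 6.26 in knockdown 2. Col4a2 read 6.45 and 6.53 against 6.50 and 6.27. In these probe sets, the brightest of both genes, knockdown 2 alone lay low, at -0.35 and -0.22 from the control mean. Knockdown 1 was within 0.07 of the control mean. The mean differences were -0.14 and -0.10 (unadjusted p = 0.345 and 0.342, limma), and without knockdown 2 they were 0.07 and 0.01. A second Col4a1 probe set read 5.60 and 5.79 against 5.59 and 5.49, a difference of -0.16 with both knockdown arrays below both controls. Of the dim Col4a3, Col4a4 and Col4a6 the differences were 0.07, -0.07 and -0.04.

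Members that are neighbours in the genome, with no other protein-coding gene between them in the RefSeq table of GRCm38.p6, formed 6 pairs. Col4a1 and Col4a2 (-0.14 and -0.10) and Col6a1 and Col6a2 (-0.13 and -0.11) had differences of like size and sign. With the brightest probe sets, those of Col4a1 and Col4a2 came through knockdown 2 alone. The second Col4a1 probe set was lower in both knockdown arrays. Col3a1 and Col5a2 lay near 0 (-0.02 and -0.01), and the sign of each turned when knockdown 2 was left out. Col4a5 and Col4a6, which lie next to each other on the X chromosome, read -0.27 and -0.04. Col4a3 and Col4a4 (0.07 and -0.07) and Col6a4 and Col6a5 (0.20 and -0.09) had opposite signs. These values are a description of the pairs, and several members of them were dim.

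**Figure D4:**
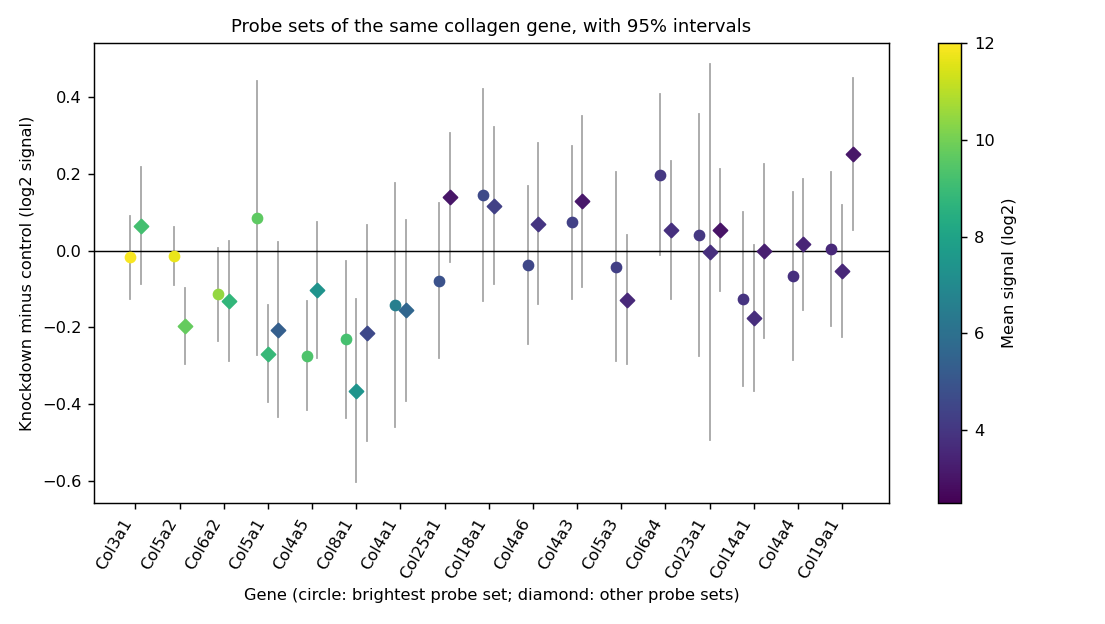
Knockdown minus control (log2 signal, vertical axis) with 95% intervals from limma for each probe set of the 17 collagen genes with more than 1 probe set, ordered by signal of the brightest (circle) and coloured by mean signal. Col5a1 and Col5a2 have a bright probe set near 0 or above it beside another whose interval lies wholly below 0, while all 3 of Col8a1 lie below 0.

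Over all 56 member probe sets, 0 passed in limma, where 1 of 45037 (0.00222%) did. With an unadjusted p under 0.05 in limma, 8 were on the lower side and 1 on the higher, against 3.83% of all probe sets lower and 3.42% higher. Both knockdown arrays lay below both controls for 20 (19.9% of all probe sets) and above both for 11 (18.6%). The 8 came from 7 genes, since Col8a1 gave 2 of them, and probe sets of a gene share a transcript. The one higher was a dim probe set of Col19a1, which read 2.99 and 2.92 against 3.30 and 3.11. Of the 17 genes with several probe sets, 7 had probe sets of both signs.

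FACIT collagens, the types on fibril surfaces, held 0 of 6 members below both controls in both knockdown arrays and 2 above, Col16a1 and Col22a1, where 17.1% of all genes lay below and 21.2% above. Their median was -0.067 in knockdown 1 and 0.061 in knockdown 2. Col16a1, a minor fibril-associated chain gene, read 6.93 and 6.83 in the controls, 7.24 in knockdown 1 and 6.93 in knockdown 2. Knockdown 2 was above the higher control by less than the gap of 0.09 between the controls. The difference was 0.21 (SE 0.11, unadjusted p = 0.116, limma), and without knockdown 1 it was 0.05. Col12a1 and Col14a1, which encode the FACIT chains of tendon and perichondrium, were dim, at the 13.8th and 28.8th percentiles. They differed by -0.06 and -0.13, Col20a1 by -0.10, Col19a1 by 0.0042 and Col22a1 by 0.07.

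Transmembrane collagens were near or under the median signal. Col25a1, the precursor of an amyloid-associated collagen, lay at the 50.5th percentile and read 4.96 and 4.91 against 4.90 and 4.82, and its dimmer probe set differed by 0.14 on the other side. Col13a1, of cell-matrix junctions, was dim and differed by -0.07. Col17a1, a hemidesmosome component of epithelia, lay at the 8.32th percentile and differed by 0.13. Col23a1 was split, with knockdown 1 at -0.17 and knockdown 2 at 0.25. Of the 4 genes, 2 were below both controls in both arrays and 1 above (17.1% and 21.2% of all genes), and their median was -0.074 in knockdown 1 and 0.063 in knockdown 2.

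Of the remaining members, Col7a1, the anchoring fibril collagen gene of skin, had the largest difference on the higher side. It read 6.16 and 5.91 in control arrays against 6.43 and 6.20 in knockdown. Knockdown 2 exceeded control 1 by little, and the controls were 0.25 apart, so the difference of 0.28 was close to the control gap (SE 0.12, 95% interval -0.01 to 0.58, unadjusted p = 0.058, limma). Without knockdown 1 it was 0.17. The multiplexin genes Col15a1 and Col18a1, whose products are basement membrane proteoglycans, differed by 0.01 and 0.14. Col18a1 lay at 0.29 in knockdown 1 and -0.00027 in knockdown 2, and Col26a1 differed by -0.02. In all, 19 of the 34 members lay below the median signal, where RMA compresses differences, so small values there say little.

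Beside them, the median over the 8 cartilage collagen genes was -0.16, and by array it was -0.24 (knockdown 1) and 0.077 (knockdown 2). None passed in limma (0 of 8), and an unadjusted p under 0.05 was found for 2 on the lower side and 1 on the higher, against 2.52% and 4.15% of all genes. Col27a1, a fibrillar collagen gene of growing cartilage, read 6.40 and 6.33 against 5.75 and 6.18, and Col11a2 4.62 and 4.40 against 4.09 and 4.21, the latter picked after its values were seen. Col11a1, on the higher side, read 9.60 and 9.64 against 9.72 and 9.82, a difference of 0.15 (unadjusted p = 0.0223, limma). Col2a1, taken by the naming rule, had its 2 knockdown arrays on opposite sides of the controls. The difference between the 2 sets of collagen genes was not tested.

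Genes of the machinery that modifies and exports collagen chains were taken next. Of 20 measured, 0 passed in limma, 0 were on the higher side with an unadjusted p under 0.05, and 1 was on the lower (4.15% and 2.52% of all genes), with a median of -0.025. These shares over all genes apply to the next lists too. The lower one was the collagen galactosyltransferase gene Colgalt2 (4.79 and 4.76 against 4.28 and 4.63), named after its values were seen. Crtap, a part of the prolyl 3-hydroxylase complex, differed by 0.14, the isomerase gene Ppib by 0.08, the transcription factor gene Creb3l1 by -0.12 and the lysyl hydroxylase gene Plod2 by -0.11. None of these 4 passed an unadjusted p of 0.05.

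Of 12 genes of fibril processing and crosslinking, 0 passed in limma, and 1 on each side had an unadjusted p under 0.05, with a median of 0.04. Adamts3, a procollagen N-propeptidase gene, read 4.65 and 4.50 in control arrays against 5.55 and 4.93 in knockdown, a 1.59-fold gap with knockdown higher (difference 0.67, SE 0.20, unadjusted p = 0.0131, adjusted p = 0.728, limma). The control mean of Adamts3, 4.58, lay under the median gene signal (4.86), so the gene met the naming rule only through the knockdown arrays. Knockdown 1 differed from that control mean by 0.98 and knockdown 2 by 0.35. Loxl2, dim and named after its values were seen, differed by -0.17. The lysyl oxidase gene Lox differed by 0.17, with knockdown 1 at 0.33 and knockdown 2 at 0.014, and Loxl4 differed by -0.02. Pcolce2, an enhancer of procollagen processing, read 7.84 and 7.77 against 6.64 and 7.82, and was low in knockdown 1 only.

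Of 9 collagen receptor genes, 0 passed in limma, and 1 on each side had an unadjusted p under 0.05, with a median of 0.017. Ddr2, the collagen-binding receptor tyrosine kinase gene of mesenchymal cells, read 9.19 and 9.20 against 8.99 and 9.07, a difference of -0.16 (SE 0.05, adjusted p = 0.728, limma) with no overlap. Itga1, dim and named after its values were seen, differed by 0.24. The integrin genes Itgb1 and Itga10 differed by 0.10 and -0.45, the latter low in knockdown 1 only (5.04, against 5.82 to 5.95 in the other arrays). Mrc2, an endocytic collagen receptor gene, differed by 0.02, with knockdown 1 at -0.15 and knockdown 2 at 0.19.

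Markers of other cell types were summed on the linear scale in each array, and 0 of them passed in limma. Such sums are not amounts of transcript and mostly follow the brightest probe sets. With an unadjusted p under 0.05 (limma), 3 osteoblast, 3 chondrocyte and 2 tendon markers were on the lower side, and 1 smooth muscle and 1 adipocyte marker on the higher. The 6 osteoblast markers measured, of 8 listed, had summed linear signals of 1777 and 1761 in the controls, 470.0 in knockdown 1 and 1086 in knockdown 2, and 5 of 6 were below both controls in both arrays, where 17.1% of all genes were. Most of the control sums was Ibsp, which read 10.15 and 10.15 against 7.02 and 9.01. The exception, Phex, was higher in knockdown 1 and lower in knockdown 2. The 4 smooth muscle markers measured, of 6, summed to 1025 and 1037 against 1780 and 1338, most of it Acta2, the smooth muscle actin gene. The 14 chondrocyte markers summed to 1074 and 1112 against 799 and 1141. The brightest of them, Col2a1, read 9.01 and 9.08 against 8.23 and 9.17. The 6 tendon and fibrous tissue markers summed to 377 and 375 against 333 and 307, and the lower sums lay in Egr1 and Mkx. The means of Scx, Tnmd, Thbs4 and Fmod were higher in knockdown, and the median difference of the list was 0.084. The 5 adipocyte markers measured, of 6, summed to 194 and 178 against 233 and 179. The 6 endothelial markers summed to 75.5 and 79.4 against 79.4 and 76.4, within the range of the controls. Below both controls in both knockdown arrays lay 4 of 14 chondrocyte, 3 of 6 endothelial and 2 of 6 tendon markers (17.1% of all genes). So did 1 of 4 smooth muscle and 1 of 5 adipocyte markers. Above both lay 1 tendon, 1 smooth muscle and 2 adipocyte markers, and 0 osteoblast, chondrocyte or endothelial ones (21.2% of all genes). The part of these markers in the collagen values was not tested.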

How the data were processed

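RNA of 4 samples was measured on Affymetrix mouse arrays, labelled from the polyadenylated end. The authors deposited 1 log2 signal for each probe set and array; the submitters' processing notes name RMA, and its version is not given in the sources used here. That the logarithm has base 2 was inferred from the values, which span 2.19 to 12.72 without array controls. RMA removes differences in total RNA and compresses changes of dim genes. Groups came from the titles. Of 45141 probe sets, 104 array controls were left out; 28898 carried 1 symbol by the platform annotation, which can be old, 551 several and 15692 none. All 56 member probe sets matched a RefSeq gene of GRCm38.p6, used for names, and 0 symbols changed. Each gene was read by its brightest probe set, and knockdown was compared with control over all 17097 genes with lmFit and eBayes (trend on) of limma 3.58.1 under R 4.3.3 (2 residual and 4.45 prior degrees of freedom; two-sided; Benjamini-Hochberg; threshold 0.05). Probe sets were fitted the same way. SEs and 95% intervals are the model's. The number of arrays limits the precision. The fit was tested on simulated data with equal spread in both groups and changes of 1 or 2 log2 units. That test does not cover differences as small as those of the members, or the wider spread between the knockdown arrays. Members and lists were chosen with earlier results of these data known. Any member could be named, and arrays are given for members at or above the median signal or with an unadjusted p under 0.05. In each pathway list up to 2 genes per direction with the smallest p at or above that median are named. These are given by their arrays or only by their difference. Other names are marked as chosen after their values were seen, or are dim members, which are given by their difference.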

Additional observations from a re-analysis of the deposited data

How the results depend on the processing

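With 2 arrays per group, single arrays decide much. Leaving out each array in turn gave 0 to 2584 genes and 0 to 9 collagen genes that passed, and a median collagen difference of -0.046 to -0.0083. Leaving out genes below the 40th percentile kept 20 members with a median of -0.058. Testing all probe sets one by one passed 1 probe set and 0 of the collagen ones. No alternative but leaving out a knockdown array made a collagen gene pass, including an adjusted p of 0.1, quantile normalization, median centring, the mean of probe sets, no trend and robust eBayes. The titles number the arrays alike in both groups, and the fit with this replicate block passed 0 genes and 0 collagen genes, with the median at -0.04; same-numbered arrays did not deviate together (correlation -0.0041 across genes). Signs turned for 15 members without 1 array. Ranges were -0.091 to 0.056 for Col3a1, -0.19 to 0.37 for Col5a1, -0.051 to 0.023 for Col5a2, -0.17 to 0.090 for Col5a3, -0.35 to 0.070 for Col4a1, -0.22 to 0.012 for Col4a2, -0.17 to 0.040 for Col4a4, -0.10 to 0.029 for Col4a6, -0.14 to 0.015 for Col12a1, -0.085 to 0.094 for Col19a1, -0.26 to 0.069 for Col20a1, -0.17 to 0.25 for Col23a1, -0.050 to 0.070 for Col15a1, -0.00027 to 0.29 for Col18a1 and -0.090 to 0.050 for Col26a1. With the mean of probe sets the sign turned for Col3a1 (0.024), Col5a1 (-0.13), Col4a6 (0.016) and Col25a1 (0.031), and with quantile normalization for Col5a2 (0.0024). The other 18 members kept their sign under every alternative run. Of these, leaving out 1 array moved the value by over 1.5 times for Col1a1 (-0.18 to -0.089), Col24a1 (-0.20 to -0.099), Col4a3 (0.024 to 0.12), Col8a1 (-0.37 to -0.093), Col14a1 (-0.21 to -0.041), Col16a1 (0.053 to 0.36), Col22a1 (0.025 to 0.12), Col13a1 (-0.11 to -0.021), Col17a1 (0.054 to 0.20), Col6a2 (-0.19 to -0.041), Col6a3 (-0.60 to -0.12), Col6a4 (0.12 to 0.28), Col6a5 (-0.16 to -0.011) and Col7a1 (0.15 to 0.41). The cause of these changes was not tested.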
